A study of Mus musculus with 2 samples.

Results

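The genes described here encode the subunits and the protectors of cohesin, the ring that holds sister chromatids together, across germ cells of the adult mouse testis. They are the 10 genes of the deposited matrix with the symbols *Rec8*, *Rad21l*, *Rad21*, *Stag3*, *Stag1*, *Smc1b*, *Smc3*, *Wapl*, *Sgol1* and *Sgol2a*, of 50686 genes in all, and they were chosen by symbol and not by a measured value. The samples were testis tissue of 2 wildtype C57Bl/6J Crl mice at 8 weeks of age, with 1 droplet library of dissociated cells for each mouse and no treatment or second genotype. The authors took a part of the testis and strained the cells, in part to keep somatic cells few. Because all cells came from the same condition, the comparisons are between cell classes. Levels are given for each mouse, but the main tests did not pair classes by mouse, which was done only in an alternative run. The matrix held 27084334 gene UMI counts in 1237 cells of mouse 1 and 29850112 in 1315 cells of mouse 2, and the median cell had 17617 and 18911 UMIs.

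Cohesin is built from a pair of SMC proteins, a kleisin that closes the ring, and a STAG subunit that binds the kleisin. Somatic cells use SMC1A, SMC3, RAD21 and STAG1 or STAG2, while meiotic cells replace several of these with SMC1B, the kleisins REC8 and RAD21L, and STAG3. In spermatocytes this meiotic form holds sister chromatids along the axis on which homologous chromosomes pair. WAPL opens the ring and releases it from chromatin. The shugoshins SGO1 and SGO2, encoded by *Sgol1* and *Sgol2a*, bring a phosphatase to the centromere, which keeps REC8 there from being cut by separase at the first meiotic division.

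The promoters of the members are shown where they carry the letters of the E2F core, GCGGGAA, which were found in more member windows than the other rarer motifs searched. RefSeq windows of 300 bases, from 250 bases before to 50 bases after a gene's start on GRCm38.p6, were held for 9 of the 10 members, with 2 windows for *Sgol2a* and none for *Rad21*. The motif was present on either strand in 4 of these 10 windows and in 4.60% of all 32851 windows. In all 4 it lay on the opposite strand, so that the capitals below read TTCCCGC. The motif contains a CG pair (CpG site). The windows with a match held 30 (*Stag3*), 29 (*Smc1b*), 43 (*Stag1*) and 11 (*Sgol2a*) such sites, beside a median of 7 over all windows. Member windows without a match held between 2 (*Rad21l*) and 35 (*Wapl*). Shares of motifs were not matched for CpG sites, so they do not measure an enrichment. *Rec8* is printed for contrast, since its window held no match. Each sequence is written 5′ to 3′ in the direction of the gene.
Stag3, chr5:138280259-138280558, plus strand: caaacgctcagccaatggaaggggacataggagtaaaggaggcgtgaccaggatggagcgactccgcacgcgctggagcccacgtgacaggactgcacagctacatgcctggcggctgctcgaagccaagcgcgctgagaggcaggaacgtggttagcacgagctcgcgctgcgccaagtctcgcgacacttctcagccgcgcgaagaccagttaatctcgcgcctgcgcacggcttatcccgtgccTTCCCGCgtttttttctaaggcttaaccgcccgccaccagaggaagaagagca
Smc1b, chr15:85131908-85132207, minus strand: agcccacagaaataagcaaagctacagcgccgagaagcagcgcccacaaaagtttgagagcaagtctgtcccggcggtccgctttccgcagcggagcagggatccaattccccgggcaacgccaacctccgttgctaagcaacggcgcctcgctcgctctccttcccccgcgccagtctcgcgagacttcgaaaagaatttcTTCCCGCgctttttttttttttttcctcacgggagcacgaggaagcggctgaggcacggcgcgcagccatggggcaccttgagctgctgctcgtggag
Stag1, chr9:100643198-100643497, plus strand: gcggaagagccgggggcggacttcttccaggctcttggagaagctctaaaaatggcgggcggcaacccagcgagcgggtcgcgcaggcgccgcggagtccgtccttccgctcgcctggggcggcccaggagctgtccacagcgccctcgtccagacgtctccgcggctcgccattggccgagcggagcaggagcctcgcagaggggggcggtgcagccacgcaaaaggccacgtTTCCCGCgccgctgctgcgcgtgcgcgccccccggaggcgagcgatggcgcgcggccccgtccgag
Sgol2a, chr1:57985090-57985389, plus strand: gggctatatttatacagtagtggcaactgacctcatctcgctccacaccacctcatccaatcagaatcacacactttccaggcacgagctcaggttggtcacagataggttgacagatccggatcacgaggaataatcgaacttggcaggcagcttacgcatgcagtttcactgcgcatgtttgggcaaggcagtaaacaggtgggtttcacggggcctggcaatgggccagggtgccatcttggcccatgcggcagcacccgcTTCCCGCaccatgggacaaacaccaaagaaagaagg
Rec8, chr14:55617916-55618215, plus strand: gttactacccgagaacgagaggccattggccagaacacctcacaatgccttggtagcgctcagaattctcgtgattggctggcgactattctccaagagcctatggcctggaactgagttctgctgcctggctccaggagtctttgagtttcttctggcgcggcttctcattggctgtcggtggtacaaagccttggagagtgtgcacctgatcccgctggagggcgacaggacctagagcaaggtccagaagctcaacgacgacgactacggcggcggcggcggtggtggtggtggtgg

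With the start base of the RefSeq window counted as 0, the match covered bases -48 to -42 in *Smc1b*, -16 to -10 in *Stag1*, -3 to 3 in *Stag3* and 14 to 20 in *Sgol2a*. The *Stag1* window, from base 100643198, lies far inside the annotated gene, which starts at 100597798. That of *Stag3*, from base 138280259, begins just inside a gene annotated from 138280240. The *Sgol2a* window with the match lies upstream of the annotated gene and inside *Kctd18*, a gene on the opposite strand, and the other *Sgol2a* window held no match. No member window held the STRA8-MEIOSIN motif CNCCTCAG, the MYB core AACNGTT or the CRE TGACGTCA, which stood in 7.94%, 4.45% and 1.79% of all windows. The CCAAT box was present in 9 of the 10 windows and in 37.4% of all, and the GC box GGGCGG was present in 6 of the 10 and in 35.7% of all. The *Rec8* window held 3 CCAAT boxes, all of them on the opposite strand. A match of letters is a description of the window and not a site of binding.

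On GRCm38, the kleisin genes were annotated at chr14:55618037-55625395 (*Rec8*, plus strand), chr2:151645404-151668533 (*Rad21l*, minus strand) and chr15:51962240-51991747 (*Rad21*, minus strand). The STAG genes lay at chr5:138280240-138312393 (*Stag3*, plus strand) and chr9:100597798-100959375 (*Stag1*, plus strand). The SMC genes lay at chr15:85064689-85131964 (*Smc1b*, minus strand) and chr19:53600398-53645833 (*Smc3*, plus strand). *Wapl* was at chr14:34673928-34747983 on the plus strand, *Sgol1* (Sgo1 in the annotation) at chr17:53674786-53689333 on the minus strand and *Sgol2a* (Sgo2a) at chr1:57995971-58025899 on the plus strand. *Sgol2a* shared 2455 exon bases with *Kctd18*, which lies on the opposite strand. The authors told reads antisense to exons apart in their mapping check and found little such background. Whether the counting left them out is not stated in the sources used here, so reads of that stretch may belong to either gene. No exon bases of the other members were shared with another annotated gene.

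Cells were grouped with the members and the related genes listed further on left out, so that their levels did not decide the classes. Clustering gave 163 early spermatocyte-like cells, 527 cells like pachytene or later spermatocytes (pachytene-like below), 450 round spermatid-like cells and 705 cells like elongating or condensing spermatids (elongating-like below). At least 1.5 times the level of all cells was reached by 9 of 14 markers in the early class, 7 of 14 in the pachytene-like, 9 of 12 in the round and all 13 in each elongating cluster. A further cluster of 688 cells, led by *Ssxb3*, *Ssxb1* and *Ssxb2*, passed 2 of 12 markers of its best class, round spermatid, and was left unnamed. It is called the *Ssxb*-led cluster here. The remaining 7 spermatogonium-like, 7 Sertoli-like and 5 Leydig-like cells were too few for tests. No barcode was shared between the mice. Levels are given as CPM, counts per 1000000 UMIs of all genes, from UMIs summed over the cells of a class in each mouse, with mean ± SD over n = 2 mice. UMIs were counted from the 3′ ends of transcripts and are not scaled by length, so CPM values are compared between classes and not between genes. CPM values are not corrected for the make-up of the RNA, while the tests below are. Statements of order and overlap between classes therefore hold for CPM and can differ from the tests.

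*Rec8*, the meiotic kleisin that resists opening until separase cuts it, was low in the spermatocyte-like cells and high in the *Ssxb*-led cluster and round spermatid-like cells. Its level was 4.71 CPM in mouse 1 and 3.37 CPM in mouse 2 in early spermatocyte-like cells and 3.98 and 3.13 CPM in pachytene-like cells. It was 81.9 and 80.0 CPM in the *Ssxb*-led cluster, 93.0 and 90.2 CPM in round spermatid-like cells and 11.5 and 11.2 CPM in elongating-like cells. The values of the mice overlapped between the spermatocyte-like classes and lay apart between every other pair of neighbours in this order. The elongating-like class joined a cluster of 206 cells, with 20.7 and 19.2 CPM, and one of 499 cells, whose 5.84 and 3.66 CPM overlapped the early spermatocyte-like values. Of the 2284 *Rec8* UMIs in all cells, 13 were in early and 64 in pachytene-like cells. At least 1 *Rec8* UMI was found in 10.4% of pachytene-like cells (exact 95% binomial interval 7.96 to 13.4%) and in 81.6% of round spermatid-like cells (77.7 to 85.0%), at median depths of 20542 and 21579 UMIs. After thinning of every cell to 5000 UMIs these shares were 3.23% and 38.0%.

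*Rad21l*, the other meiotic kleisin, had no UMI in any of the 2552 cells, which allows a share of cells with a UMI of up to 0.118% and a level of up to 0.0527 CPM over all cells. In the early spermatocyte-like cells, where the meiotic axis forms, the limit from 3 counts was 0.874 CPM. Intervals and limits cover counting error only. Whether the annotation and the masking of repeats let reads of its 3′ end be counted could not be checked, so the 0 says only that no UMI was assigned to the gene. *Rad21*, the kleisin of somatic cohesin, was low in early spermatocyte-like cells (9.43 and 5.90 CPM), in pachytene-like cells (5.82 and 6.80 CPM) and in the *Ssxb*-led cluster (8.32 and 7.93 CPM). These 3 classes overlapped between the mice in neighbouring order. *Rad21* then stood at 42.1 and 46.6 CPM in round spermatid-like cells and at 49.2 and 75.8 CPM in elongating-like cells, where the mice did not overlap with round spermatid-like cells.

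*Rad21* also differed between the 2 elongating clusters. In the smaller cluster of 206 cells it was 114 CPM in mouse 1 and 144 CPM in mouse 2, and in the larger cluster of 499 cells it was 9.05 and 10.98 CPM. *Smc1b* also stood apart there, at 186 and 222 CPM in the smaller cluster and 39.1 and 37.3 CPM in the larger, while *Wapl* was 15.5 and 20.96 CPM in the smaller and 15.5 and 20.96 CPM in the larger. The median depth was 23044 UMIs per cell in the smaller cluster and 11560 in the larger.

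*Stag3*, the STAG subunit of meiotic cohesin, was 155 and 164 CPM in early and 160 and 170 CPM in pachytene-like cells, and these classes overlapped. It was 101 and 118 CPM in the *Ssxb*-led cluster, 78.3 and 93.2 CPM in round spermatid-like cells and 27.4 and 36.1 CPM in elongating-like cells. In CPM each of these steps lay outside the spread of the mice. The edgeR test from the *Ssxb*-led cluster to round spermatid-like cells, given below, did not pass (log2 fold change -0.11, adjusted p = 0.628). *Stag1*, a STAG subunit of somatic cohesin, was 107 and 80.9 CPM in early spermatocyte-like cells. In pachytene-like cells it was 18.4 and 17.7 CPM, and it was lower again in the *Ssxb*-led cluster (11.4 and 11.1 CPM), round spermatid-like cells (8.18 and 6.20 CPM) and elongating-like cells (0.720 and 2.05 CPM). No class of *Stag1* overlapped its neighbour in this order.

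*Smc1b*, the meiotic SMC1, was the member with the most UMIs, 19205 in all cells. It was 686 and 629 CPM in early spermatocyte-like cells, 328 and 325 CPM in pachytene-like cells, 387 and 403 CPM in the *Ssxb*-led cluster and 415 and 428 CPM in round spermatid-like cells. In elongating-like cells it was 95.3 and 127 CPM. In CPM the classes did not overlap, with early spermatocyte-like cells highest and pachytene-like cells above elongating-like cells only. This order depends on the scaling. The tests used factors for the make-up of the RNA (TMM) of 1.56 and 1.37 in early and 0.959 and 0.957 in round spermatid-like cells, which narrow the gap between these classes. *Smc3*, the SMC subunit that meiotic and somatic cohesin share, was highest in the *Ssxb*-led cluster at 213 and 245 CPM, and stood at 181 and 186 CPM in round spermatid-like cells and 45.02 and 59.7 CPM in elongating-like cells. It was 28.0 and 33.4 CPM in pachytene-like cells. In early spermatocyte-like cells the mice were apart, with 58.4 CPM in mouse 1 and 20.7 CPM in mouse 2, a range that overlapped both neighbouring classes. In that class the markers of Sertoli cells, 12 of 13 with a UMI and only *Gata4* at 0, summed to 157 CPM in mouse 1 and 52.7 CPM in mouse 2. The markers of elongating spermatids, 13 of 13 with a UMI, summed to 7513 and 4105 CPM there, and those of spermatogonia, 11 of 14 with a UMI and *Sall4*, *Kit* and *Lin28a* at 0, to 59.4 and 45.9 CPM. All 3 sums were higher in mouse 1, as were those of early spermatocyte (3438 and 2723 CPM), round spermatid (565 and 499 CPM) and Leydig markers (47.1 and 38.8 CPM). Those of pachytene (11111 and 12179 CPM), peritubular or endothelial (0.943 and 3.37 CPM), immune (0.943 and 2.11 CPM) and red blood cell markers (4.71 and 9.69 CPM) were lower in mouse 1. The part of any of these in the *Smc3* difference was not tested.

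*Wapl*, which encodes the factor that releases cohesin, was 148 and 201 CPM in early and 169 and 186 CPM in pachytene-like cells, and these overlapped. It was 122 and 126 CPM in the *Ssxb*-led cluster, 54.2 and 66.9 CPM in round spermatid-like cells and 15.5 and 20.96 CPM in elongating-like cells. *Sgol2a*, the shugoshin that guards REC8 in meiosis, was 91.4 and 92.3 CPM in early and 110 and 100 CPM in pachytene-like cells. It was 22.3 and 16.8 CPM in the *Ssxb*-led cluster, 5.14 and 4.02 CPM in round spermatid-like cells and 2.52 and 1.70 CPM in elongating-like cells. No class overlapped its neighbour in CPM, but the edgeR test from round to elongating-like cells did not pass (log2 fold change -0.24, adjusted p = 0.601). *Sgol1*, the shugoshin best known from mitosis, had only 70 UMIs in all cells, at 6.60 and 5.06 CPM in early spermatocyte-like cells. In the *Ssxb*-led cluster and in the pachytene, round and elongating classes it did not pass 1.22 CPM in either mouse, and in elongating-like cells it had 3 UMIs, all in mouse 1.

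**Figure D1:**
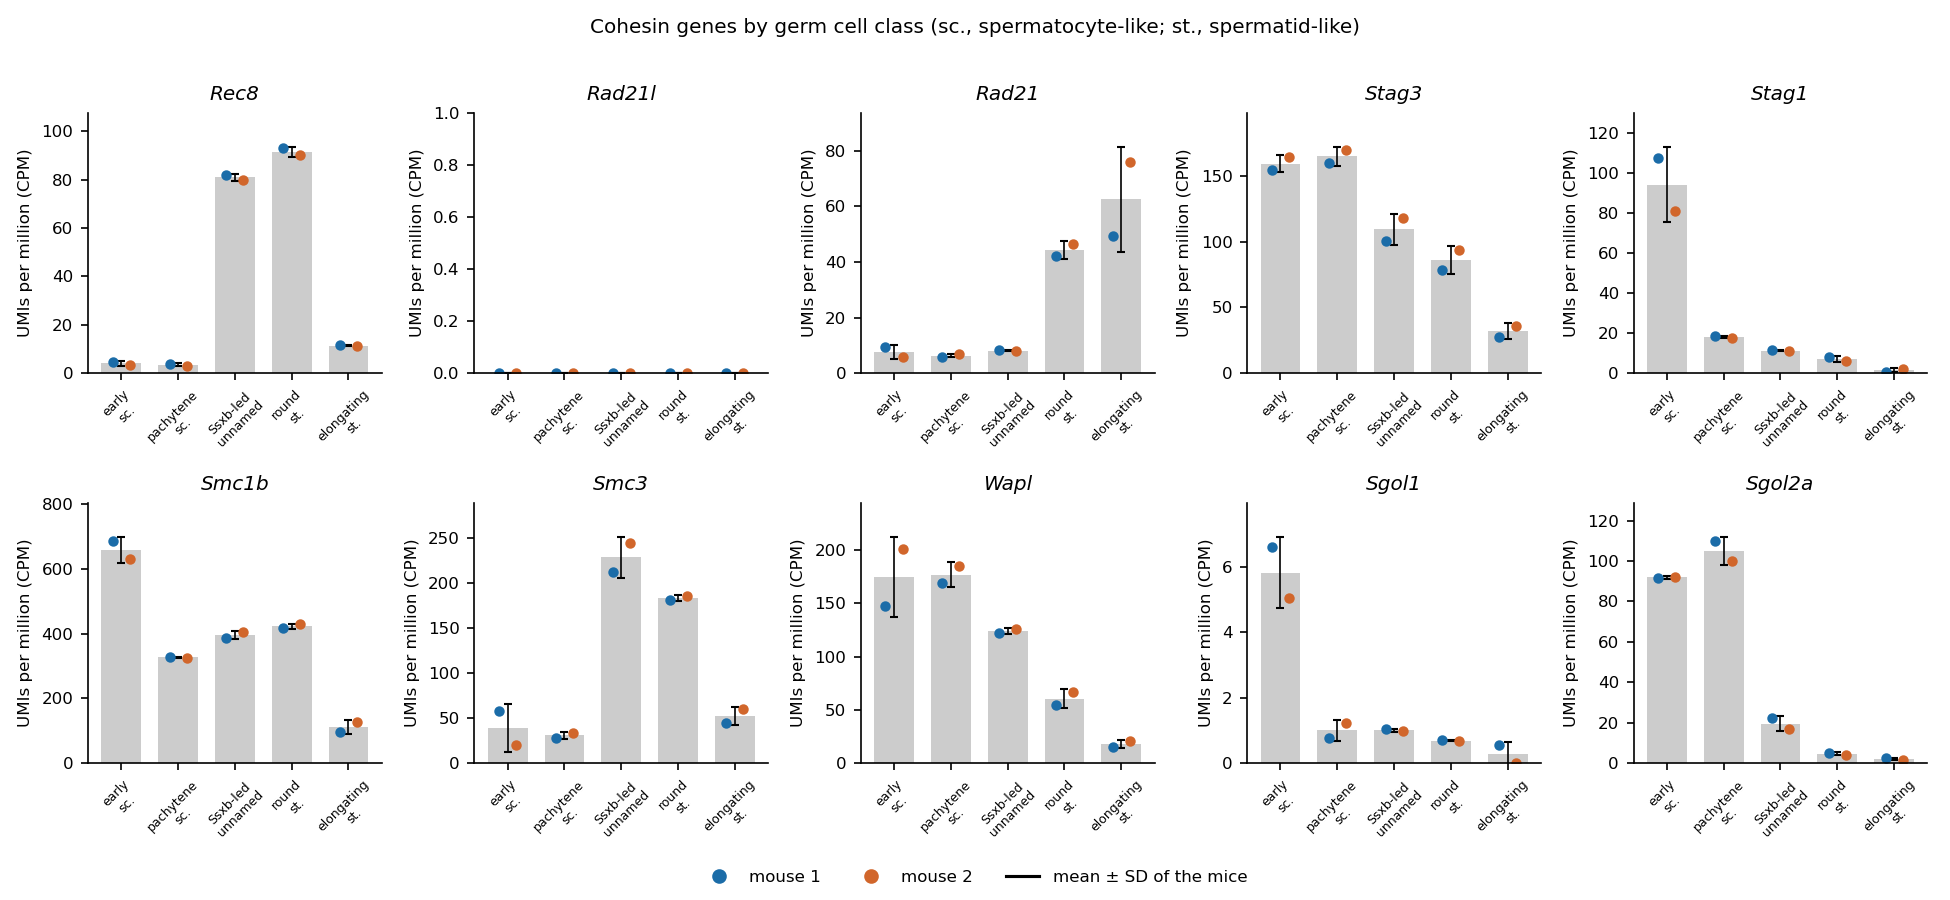
UMI counts per 1000000 (CPM, linear axes from 0) of the 10 genes in 5 germ cell classes, with a grey bar for the mean of 2 mice, error bars for the SD, and points for mouse 1 and mouse 2. *Rec8* and *Smc3* stood high in the *Ssxb*-led cluster and round spermatid-like cells, *Rad21* in round and elongating-like cells, *Sgol2a* and *Wapl* in the spermatocyte-like classes, and *Rad21l* at 0 throughout.

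The broadest comparison set the mean of the spermatocyte-like classes against the mean of the spermatid-like classes, with UMIs summed per mouse and class and tested by edgeR's quasi-likelihood test with Benjamini-Hochberg adjustment over 14713 genes. Of the 10 members 9 were tested, since *Rad21l* had no UMI. In the order of their change, *Sgol2a*, *Stag1*, *Sgol1*, *Wapl* and *Stag3* were higher in spermatocyte-like cells, and *Rec8*, *Rad21* and *Smc3* were lower. These are 5 and 3 of the 9, beside 40% of all tested genes called higher and 43.3% called lower, so that a called member was no rarity in either direction. *Sgol2a* was higher by a log2 fold change of 4.11 (SE 0.17, adjusted p = 1.25e-15, edgeR) and *Stag1* by 2.81 (SE 0.20, adjusted p = 1.54e-11). *Wapl* was higher by 1.53 (SE 0.13, adjusted p = 6.75e-10) and *Stag3* by 0.75 (SE 0.12, adjusted p = 4.25e-06). For *Sgol1* the log2 fold change was 1.55 (SE 0.54, adjusted p = 0.0117), and the call was lost with DESeq2 (1.42, adjusted p = 0.0778) and with the larger elongating cluster alone (1.03, adjusted p = 0.0864). The smaller cluster alone, with no *Sgol1* UMI, kept the call (adjusted p = 0.00137), and mouse 1 alone gave 0.96. Lower in spermatocyte-like cells were *Rec8* by 3.99 (SE 0.17, adjusted p = 1.95e-15), *Rad21* by 3.86 (SE 0.17, adjusted p = 6.18e-15) and *Smc3* by 2.47 (SE 0.17, adjusted p = 9.68e-12). With the *Ssxb*-led cells counted as pachytene-like the values of *Rec8* and *Smc3* were -2.28 and -1.45 (adjusted p = 5.7e-09 and 4.52e-06).

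*Smc1b* did not pass the test, with a log2 fold change of 0.21 (SE 0.10, adjusted p = 0.0674). With the mouse as a replicate block it passed at the same size (0.21, adjusted p = 0.0196), and it also passed with the *Ssxb*-led cells counted as round spermatid-like (0.34, adjusted p = 0.00595) or as pachytene-like (0.29, adjusted p = 0.0350). The scaling weighed on this gene. The TMM factors, which correct for the make-up of the RNA, ran from 0.529 in elongating-like cells to 1.56 in early spermatocyte-like cells, and scaling by total counts alone moved every log2 fold change of this comparison by 0.89. It gave 1.10 for *Smc1b* (adjusted p = 5.31e-09) and turned the split of calls over all genes from 48.0% to 61.5% higher. The directions of the other 8 tested members held under either scaling. The larger elongating cluster alone gave *Smc1b* 0.86 (adjusted p = 5.38e-08), and the smaller alone -0.05 (adjusted p = 0.619).

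**Figure D2:**
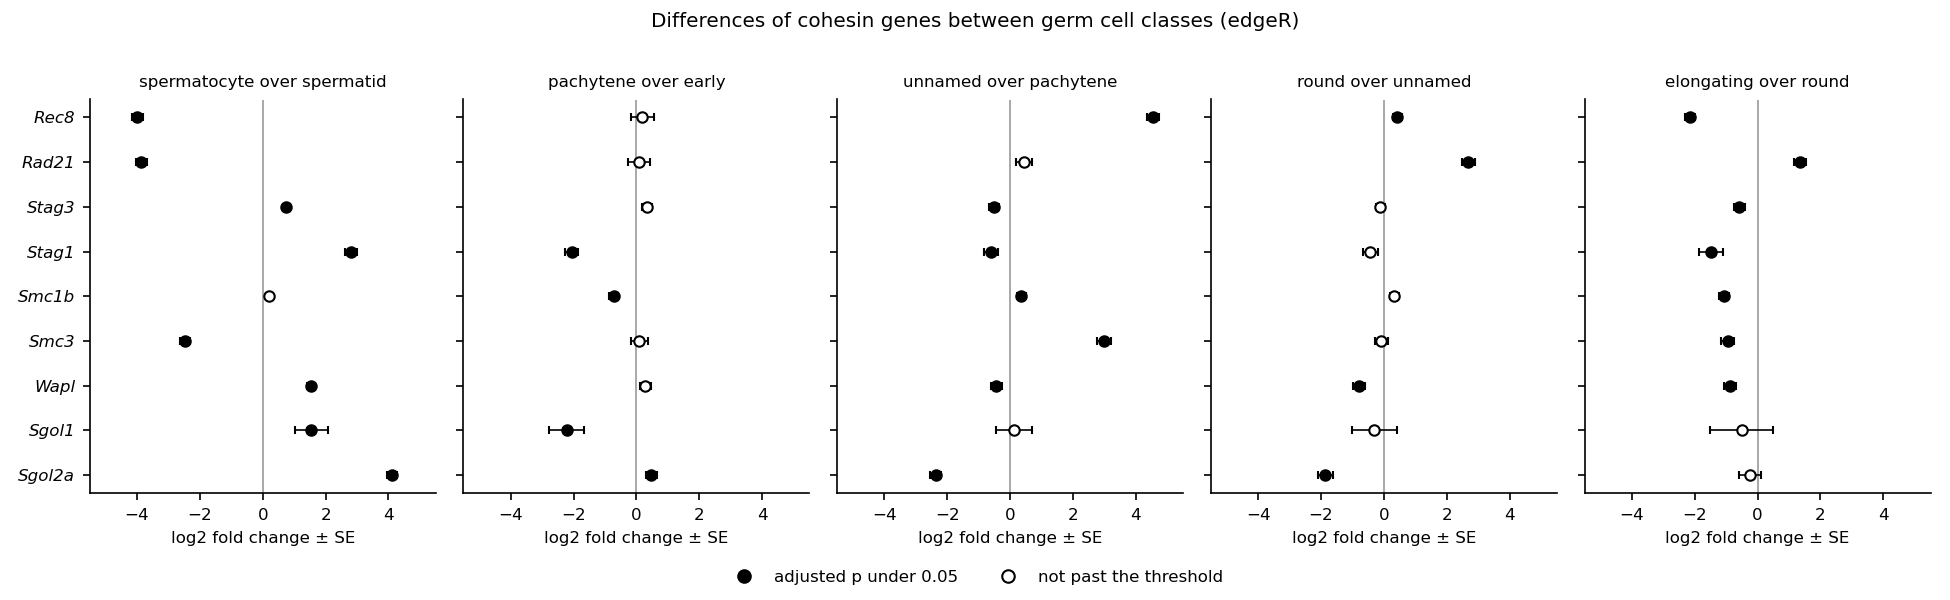
Log2 fold change (x axis, with the SE derived from the test statistic as bars) of the 9 tested genes in 5 comparisons of germ cell classes, from edgeR on UMIs summed per mouse and class. Filled points passed an adjusted p of 0.05. *Rec8* was lower on the spermatocyte-like side both in spermatocyte over spermatid (-3.99) and in the *Ssxb*-led (unnamed) cluster over pachytene-like cells (4.55).

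Between the spermatocyte-like classes, *Stag1*, *Smc1b* and *Sgol1* were lower in pachytene-like than in early spermatocyte-like cells. *Stag1* fell by 2.06 on the log2 scale (SE 0.20, adjusted p = 3.8e-08), *Sgol1* fell by 2.22 (SE 0.56, adjusted p = 0.00236) and *Smc1b* fell by 0.72 (SE 0.15, adjusted p = 0.000313). *Sgol2a* was the 1 member higher, by 0.48 (SE 0.17, adjusted p = 0.0240), a call lost with DESeq2 (0.24, adjusted p = 0.422), RLE scaling (0.23, adjusted p = 0.252) and total-count scaling (0.19, adjusted p = 0.348), and 0.29 in mouse 2 alone against 0.68 in mouse 1. Thus 1 and 3 of 9 passed, beside 25.1% of all tested genes called higher and 23.4% called lower. With the mouse as a replicate block *Stag3* (0.34, adjusted p = 0.0146, against 0.33 and 0.0984 without it) and *Wapl* (0.29, adjusted p = 0.0408, against 0.27 and 0.212) also passed. For *Rec8*, *Smc3* and *Rad21* the log2 fold changes of 0.19, 0.09 and 0.09 were within the SE of each, and turned below 0 under RLE or total-count scaling. RLE scaling turned the share of calls that were higher from 51.7% to 40.5%, and total-count scaling, which shifted this comparison by -0.30, turned it to 38.9%.

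From pachytene-like cells to the *Ssxb*-led cluster, *Rec8* and *Smc3* rose most among the members and *Sgol2a* fell most. *Rec8* was higher by 4.55 (SE 0.19, adjusted p = 2.1e-14), *Smc3* by 2.98 (SE 0.22, adjusted p = 1.22e-10) and *Smc1b* by 0.35 (SE 0.14, adjusted p = 0.0391), the last not past the threshold under total-count scaling (0.28, adjusted p = 0.0657). *Sgol2a* fell by 2.36 (SE 0.17, adjusted p = 1.31e-10), *Stag3* fell by 0.52 (SE 0.15, adjusted p = 0.00597), *Stag1* fell by 0.61 (SE 0.21, adjusted p = 0.0170) and *Wapl* fell by 0.44 (SE 0.17, adjusted p = 0.0298). The calls of *Stag1* and *Wapl* were lost with DESeq2 (adjusted p = 0.144 and 0.192) and with RLE scaling (0.0570 and 0.0852). *Rad21* (0.44, adjusted p = 0.122) and *Sgol1* (0.12, adjusted p = 0.875) did not pass. The 3 higher and 4 lower of 9 stood beside 31.8% and 29.2% of all tested genes.

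From the *Ssxb*-led cluster to round spermatid-like cells the main change among the members was in *Rad21*, which rose by 2.69 (SE 0.21, adjusted p = 1.61e-09). *Rec8* was higher by 0.42 (SE 0.14, adjusted p = 0.0215), a call lost without the low-count filter (0.42, adjusted p = 0.0684) and under total-count scaling (0.18, adjusted p = 0.273). *Sgol2a* fell by 1.86 (SE 0.24, adjusted p = 1.36e-06) and *Wapl* fell by 0.79 (SE 0.18, adjusted p = 0.000861). These 2 higher and 2 lower of 9 stood beside 24.8% and 19.9% of all tested genes. *Smc1b* had 0.33 (SE 0.14, adjusted p = 0.0645) and passed with the mouse as a replicate block (0.33, adjusted p = 0.0112), with DESeq2 (0.46, adjusted p = 0.00192) and with RLE scaling (0.46, adjusted p = 0.00623). *Stag1* had -0.43 (adjusted p = 0.186), and passed under total-count scaling (-0.67, adjusted p = 0.0398). *Stag3* (-0.11), *Smc3* (-0.08) and *Sgol1* (-0.31) did not pass, and the first pair turned to 0.02 and 0.05 under RLE scaling. Total-count scaling shifted this comparison by -0.24 and turned the share of calls that were higher from 55.6% to 40.2%.

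From round to elongating-like cells 6 of the 9 tested members fell and *Rad21* rose, beside 26.2% of all tested genes called lower and 27.1% called higher. *Rec8* fell by 2.15 (SE 0.17, adjusted p = 5.46e-10), *Stag1* fell by 1.48 (SE 0.38, adjusted p = 0.00224), *Smc1b* fell by 1.07 (SE 0.15, adjusted p = 2.48e-06) and *Smc3* fell by 0.95 (SE 0.21, adjusted p = 0.000553). *Wapl* fell by 0.88 (SE 0.20, adjusted p = 0.000759) and *Stag3* fell by 0.58 (SE 0.17, adjusted p = 0.00584). *Stag1* gave -2.65 in mouse 1 alone and -0.74 in mouse 2 alone. *Rad21* was higher by 1.35 (SE 0.18, adjusted p = 1.97e-06), by 2.06 with the smaller elongating cluster alone and by 0.49 under total-count scaling (adjusted p = 0.0299), but with the larger cluster alone it was lower, at -1.05 (adjusted p = 0.000251). *Smc1b* and *Smc3* gave -2.36 and -2.03 with the larger cluster alone. With the smaller cluster alone, *Smc1b* gave -0.53 (adjusted p = 0.00302), and *Stag3* (-0.37, adjusted p = 0.0789) and *Smc3* (-0.47, adjusted p = 0.0667) were not past the threshold. *Sgol2a* had -0.24 (adjusted p = 0.601), and passed under total-count scaling (-1.09, adjusted p = 0.00779), while *Sgol1*, with 7 and 3 UMIs in these classes, had -0.50 (adjusted p = 0.707). Total-count scaling shifted this comparison by -0.86 and turned the share of calls that were higher from 50.8% to 22.7%.

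A finer course came from ordering 2533 germ cells by diffusion pseudotime, without the members or listed genes, in 20 bins of equal cell number that run from early spermatocyte-like to elongating-like cells. *Rec8* lay between 2.78 and 8.23 CPM (means of 2 mice) in bins 1 to 5, and reached 13.5 CPM in bin 6 and 45.03 CPM in bin 7, where 88.98% of the cells belonged to the *Ssxb*-led cluster. It peaked at 108 ± 4.76 CPM (SD, n = 2) in bin 12, with the highest bin of each mouse at 10 and 12, and was down to 11.7 CPM in bin 16 and to 3.24 and 3.80 CPM in bins 17 and 18, within the range of bins 1 to 5. *Smc3* took a like course, with its peak of 260 ± 12.7 CPM in bin 11. *Rad21* followed later, from 9.81 CPM in bin 12 to 71.0 CPM in bin 14, with a peak of 134 ± 8.14 CPM in bin 15, which held 51 round and 75 elongating-like cells, and 18.8 CPM in bin 17. The mice placed the *Rad21* peak in bins 15 and 16.

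The other detected members were highest in bins 1 to 4. *Stag1* was 115 ± 14.0 CPM in bin 1 and 30.8 CPM in bin 2, and *Smc1b* fell from 731 ± 28.5 CPM in bin 1 to 312 CPM in bin 6, stood at 439 CPM in bin 13 and ended at 25.5 CPM in bin 20. *Sgol2a* stayed between 64.1 and 106 CPM in bins 1 to 6 and was 11.8 CPM in bin 10. Its highest bin was 3 in mouse 1 and 1 in mouse 2. With 10 bins in place of 20 its peak moved to bin 3 of 10 (102 CPM), while the other detected members kept theirs in the matching bin. *Stag3* and *Wapl* had their highest values in bins 4 (179 ± 19.1 CPM) and 3 (191 ± 31.9 CPM). *Stag3* was 12.3 CPM in bin 20, while *Wapl* was lowest in bin 17 at 7.67 CPM and stood at 18.7, 21.4 and 20.3 CPM in bins 18 to 20. Pearson's r between members over the 40 bin values, given as a description of points that share libraries and depth, was 0.893 for *Rec8* with *Smc3* and 0.909 for *Stag3* with *Wapl*. It was 0.217 for *Rec8* with *Stag3*.

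**Figure D3:**
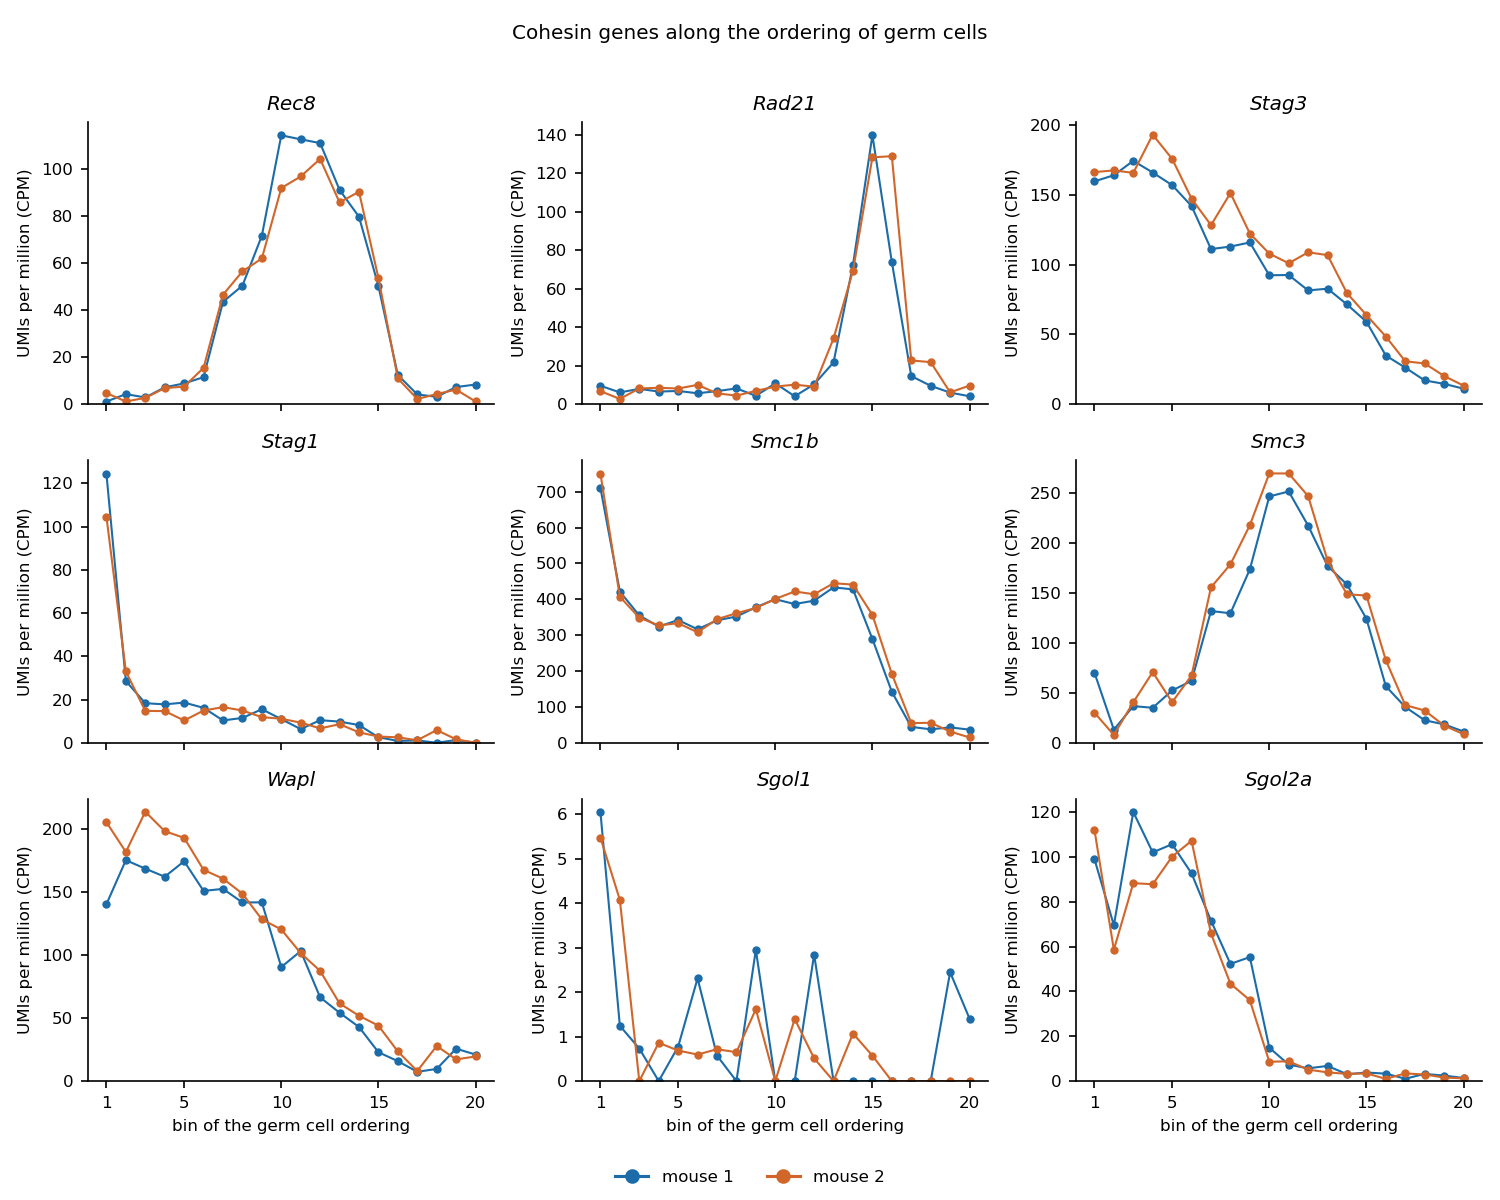
UMI counts per 1000000 (CPM, y axis from 0) of the 9 detected genes in 20 bins of the germ cell ordering (x axis), with a line for each mouse. *Rec8* and *Smc3* rose after bin 6, *Rad21* had a narrow peak at bins 15 and 16, and *Stag1* dropped after bin 1, in both mice.

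Genes whose course was most like that of a member were named by the highest Pearson r of log2(CPM + 1) over the same 40 points, among 7896 genes with at least 500 UMIs. For *Rec8* these were *Fam47c* (0.980), *Pphln1* (0.972) and *Nup160* (0.967). For *Stag3* they were *Uqcrc1* (0.984), *Ldha* (0.983) and *Cenpv* (0.983), and for *Smc1b* they were *Zranb2* (0.980), *Ndufa6* (0.979) and *Ccpg1os* (0.978). *Rad21l*, with no UMI, has none.

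To see which paralog supplied the transcripts of each subunit, the UMIs of a gene were taken as a share of its group, with the limit that the 3′ ends of paralogs may not be captured alike. Among the kleisins, *Rec8* made up 34.8 ± 2.14% (SD, n = 2) of 37 UMIs in early and 36.0 ± 6.43% of 174 UMIs in pachytene-like cells, with *Rad21* as the remainder. The share of *Rec8* was 90.9 ± 0.140% in the *Ssxb*-led cluster, 67.4 ± 2.07% in round spermatid-like cells and 16.0 ± 4.30% in elongating-like cells. That last class joined unlike clusters, with 31 *Rec8* and 64 *Rad21* UMIs in the larger of 499 cells and 99 and 654 in the smaller of 206. Without called doublets the *Rec8* share in early spermatocyte-like cells was 27.3%. For the early class, with 13 of 37 UMIs pooled over the mice, the exact 95% binomial interval ran from 20.2 to 52.5%.

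Among the STAG genes, *Stag3* made up 62.8 ± 5.93% in early and 89.8 ± 0.753% in pachytene-like cells, and *Stag1* 36.9 ± 5.42% and 9.86 ± 0.638%. *Stag2*, the other somatic STAG gene, held 0.357% and 0.298% there, but 11.1 ± 0.129% in the *Ssxb*-led cluster and 18.2 ± 0.369% in round spermatid-like cells, above *Stag1* in each (8.37% and 6.41%). *Stag3* remained the largest share at 80.5% and 75.3% in these, and 87.8 ± 3.77% in elongating-like cells. Of the SMC1 UMIs, *Smc1b* supplied between 98.8 and 100% in all 5 classes, and the somatic *Smc1a* had 0 of 2221 in early spermatocyte-like cells. *Sgol2a* supplied 94.0 ± 1.09% of the *Sgol1* and *Sgol2a* UMIs in early and 99.0 ± 0.358% in pachytene-like cells. With *Sgol2b* counted as well, it had 316 of 350 UMIs (90.3%) and 1869 of 1972 (94.8%).

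**Figure D4:**
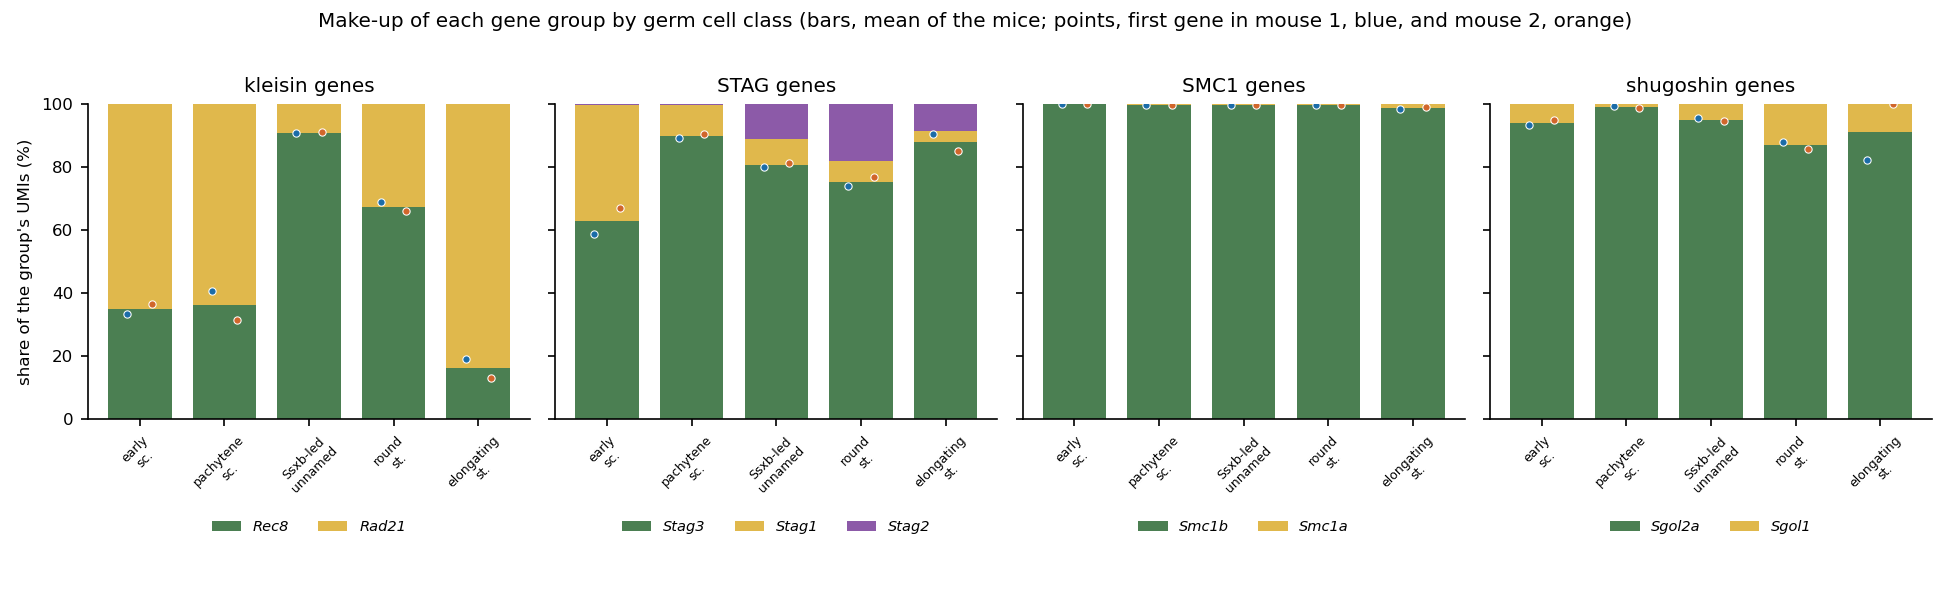
Share of each gene group's UMIs (y axis, percent) by paralog in 5 germ cell classes, as the mean of 2 mice, with points for the first gene of each group in each mouse. *Rad21l*, at 0, and *Sgol2b* are not drawn. *Rec8* held 90.9% of kleisin UMIs in the *Ssxb*-led cluster and 16.0% in elongating-like cells, while *Smc1b* held 98.8% or more of SMC1 UMIs throughout.

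Of the small classes, the 7 spermatogonium-like cells had 14 *Rad21* UMIs of 16 kleisin UMIs and 6 *Smc1a* UMIs of 58 SMC1 UMIs. Their *Smc3* level was 599 and 684 CPM, *Smc1b* 388 and 1002 CPM, *Stag1* 176 and 147 CPM, and *Sgol1* had 9 UMIs. The 7 Sertoli-like cells, in which meiotic cohesin is not known to be made, held 13 *Smc1b*, 9 *Rec8* and 5 *Stag3* UMIs, at a median depth of 11363 UMIs. These lay in 5, 4 and 2 of the cells, with up to 7, 6 and 4 UMIs in a single cell. In the 5 Leydig-like cells, at a median depth of 9514 UMIs, *Stag3*, *Smc1b*, *Rad21*, *Stag1*, *Sgol1* and *Sgol2a* had 0 UMIs. Free RNA from broken cells can give UMIs in cells that do not express a gene, and no class free of germ cell RNA was large enough to measure it, so the part of such RNA in low levels, such as *Rec8* in spermatocyte-like cells, was not tested.

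Other genes of the cohesin cycle were taken from a list of 16 subunits and regulators, of which *Smc1a* and *Hdac8*, with 74 and 16 UMIs, were not tested. In spermatocyte over spermatid, 10 of 14 were higher, 3 were lower and *Cdca5*, which encodes sororin, had 0.26 and did not pass. All tested genes were called higher in 40% and lower in 43.3%, and the median log2 fold change was 1.38 in the list and -0.08 over all genes. *Ddx11*, a helicase linked to cohesion, had the largest difference among the genes higher in spermatocyte-like cells, 3.48 (SE 0.31, adjusted p = 9.8e-10). The separase gene *Espl1* was higher there by 3.04 and *Pds5b*, whose product binds cohesin together with WAPL, by 2.81. The 3 lower genes were *Dscc1* (-5.10, SE 0.20, adjusted p = 4.9e-16), *Stag2* (-4.64, SE 0.40, adjusted p = 4.92e-10) and *Chtf8* (-2.75), and the proteins of *Dscc1* and *Chtf8* belong to the same clamp loader. *Dscc1* was 168 and 153 CPM in round spermatid-like cells and 2.04 and 2.58 CPM in pachytene-like cells, with no overlap. *Chtf18*, of the same loader, was higher in spermatocyte-like cells by 0.98.

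In pachytene over early, *Cdca5*, *Nipbl*, *Espl1* and *Pttg1* were higher (0.43 to 1.31) and *Esco2*, *Chtf8*, *Pds5b*, *Pds5a* and *Esco1* were lower, beside 25.1% and 23.4% of all tested genes. *Esco2*, an acetyltransferase that establishes cohesion during DNA replication, fell by 4.42, from 33.9 and 22.8 CPM to 1.07 and 0.952 CPM. *Stag2*, *Dscc1* and *Chtf8* were the 3 genes of the list higher in the *Ssxb*-led cluster than in pachytene-like cells (4.75, 3.85 and 1.87) and again in round spermatid-like cells than in the *Ssxb*-led cluster (0.70, 2.58 and 1.71). In those comparisons 7 and 5 were lower, the latter *Esco1*, *Espl1*, *Pttg1*, *Mau2* and *Nipbl*, beside 29.2% and 19.9% of all tested genes called lower and 31.8% and 24.8% called higher. In elongating over round, *Cdca5* was higher (0.82), but not under total-count scaling (-0.04, adjusted p = 0.907), and *Dscc1*, *Nipbl*, *Espl1*, *Stag2* and *Pttg1* were lower (-2.20 to -0.78), beside 27.1% of all tested genes called higher and 26.2% called lower.

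Of 15 genes of centromeric protection and its kinases, *Ppp2r5b*, with 17 UMIs, was not tested. In spermatocyte over spermatid 9 of 14 were higher, *Ppp2r5a* (-2.30, SE 0.38, adjusted p = 9.83e-06) and *Gsg2*, which encodes haspin (-1.24), were lower, and *Ppp2r5d*, *Plk1* and *Ppp2r5e* did not pass. The median was 0.86 beside -0.08 over all genes, of which 40% were called higher and 43.3% lower. *Sgol2b*, a close copy of *Sgol2a* with which it may share reads, had 15 UMIs in early and 86 in pachytene-like cells, 9 in the *Ssxb*-led cluster, 0 in round and 3 in elongating-like cells, so no fold is given for its calls. With *Sgol2b* set at the limit of 3 counts over the class, the median was also 0.86. *Aurkb*, the kinase of the chromosomal passenger complex, was higher by 2.37 (SE 0.42, adjusted p = 2.58e-05), with 21.2 CPM in each mouse in pachytene-like cells.

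In pachytene over early 7 genes of this list were higher, beside 25.1% of all tested genes, led by the polo kinase gene *Plk1* (4.40, from 17.9 and 10.1 CPM to 222 and 225 CPM) and *Aurkb* (3.003), and *Ppp2ca*, *Ppp2r1a*, *Meikin* and *Bub1* were lower (-3.21 to -0.39), beside 23.4%. In the *Ssxb*-led cluster *Bub1*, *Ppp2r1a* and *Meikin* were higher than in pachytene-like cells (0.43 to 1.99) and *Sgol2b*, *Aurkb*, *Ppp2r5d*, *Aurkc* and *Ppp2r5c* were lower, beside 31.8% and 29.2% of all tested genes. Round over *Ssxb*-led cells gave 9 lower, beside 19.9%, and *Ppp2r5d* higher (1.66), beside 24.8%. In elongating over round *Bub1*, *Incenp*, *Plk1*, *Meikin* and *Aurkc* were lower (-3.12 to -1.28), and *Ppp2r5a* (4.31), *Gsg2* (0.49) and *Sgol2b* were higher, beside 26.2% and 27.1%. Under total-count scaling *Gsg2* was lower there (-0.36, adjusted p = 0.0167).

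The related SMC complexes, condensin and SMC5/6, were represented by 13 tested genes, of which 11 were higher in spermatocyte over spermatid, beside 40% of all tested genes, with a median of 2.13 beside -0.08 over all genes. The condensin genes *Ncaph* (4.62, SE 0.41, adjusted p = 7.32e-10) and *Ncapd3* (4.51, SE 0.28, adjusted p = 2.42e-12) led them, followed by the SMC5/6 gene *Nsmce4a* (3.44, SE 0.52, adjusted p = 3e-06). *Nsmce1* was lower (-0.28), beside 43.3% of all tested genes, but higher under total-count scaling (0.60, adjusted p = 1.28e-06), and *Ncapg2* did not pass (0.20). In pachytene over early, 6 were higher, beside 25.1%, and *Ncaph2* (-1.47) and *Nsmce2* (-0.60) were lower, beside 23.4%. In the *Ssxb*-led cluster 10 were lower than in pachytene-like cells, beside 29.2%, and *Nsmce1* was higher (0.47), beside 31.8%. Round over *Ssxb*-led cells gave *Ncaph*, *Ncapd2*, *Ncapg*, *Smc6* and *Nsmce2* lower (-2.59 to -0.70), beside 19.9%, and *Smc2* higher (0.996), beside 24.8%. Elongating over round gave 7 lower, beside 26.2%, and *Ncaph2* higher (1.05), beside 27.1%. Apart from *Cdca5*, *Gsg2* and *Nsmce1* as given, the called genes of the 3 lists kept their direction under RLE and total-count scaling. Their counts changed. In pachytene over early, either scaling gave 4 higher and 4 lower for condensin and SMC5/6, and 2 and 5 for the cohesin list. The centromeric list had 7 and 4 under RLE and 6 and 4 under total-count scaling. Of all tested genes, RLE scaling called 20.1% higher and 29.55% lower there, and total-count scaling 19.4% and 30.6%. In elongating over round, total-count scaling gave 0 higher and 9 lower (cohesin list), 1 and 9 (centromeric list) and 0 and 8 (condensin and SMC5/6). It called 14.7% of all tested genes higher and 50.1% lower in that comparison. These lists were described by their counts and medians, and no set was tested.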

How the data were processed

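Whole UMI counts per gene and cell, as deposited by the authors, were used without further normalization of the matrix. The authors made them from 10x Chromium libraries with bcl2fastq 2.17.1.14 and Cell Ranger 2.0.0, per the labels, on a repeat-masked mouse genome (mm10) with an Ensembl annotation and added repeat sequences, and then combined the counted libraries of the mice with downsampling of reads to equal depth per cell. The number at the end of each barcode was taken as the mouse. Alignments and the authors' cell types were not used here.

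All 2552 cells were kept, and 1182 repeat rows were left out. Doublets were called by scrublet in 25 cells and kept. K-means (K = 9, 10 principal components of 27227 genes, seed 42) was run on standardised log counts, without the members and listed genes, and clusters were named "-like" if at least 3 markers reached 1.5 times the CPM of all cells. UMIs were summed over 5 germ cell classes in 2 mice. The 10 sums were tested together with edgeR 4.0.16 in R 4.3.3 (TMM, filterByExpr, adjusted p under 0.05), so that the classes shared 1 estimate of the spread, and p-values rest on 2 animals. Each SE was derived from that test, as the absolute log2 fold change divided by the square root of the F statistic. It restates the test and is no separate measure of spread. Most of the 14713 tested genes, but not the members, took part in the clustering. On simulated data for spermatocyte over spermatid with 14713 genes, edgeR recovered 188 of 200 genes changed 4-fold with 8 false calls. DESeq2 1.42.0 recovered 178 with 6. In the counts of the mice, 40% of all tested genes were called higher in this comparison and 43.3% lower. The rate of false calls with that many changed genes was not tested.

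Sums with the same number come from the same animal, and their deviations correlated at 0.0311 to 0.203 between classes, so that a replicate block for the mouse was an alternative. Other alternatives were DESeq2, RLE scaling, no low-count filter, leaving out doublets, keeping the listed genes in the clustering, K = 10, each mouse alone, 10 bins, and naming the *Ssxb*-led cluster as either neighbour. Total-count scaling, each elongating cluster alone, both scalings for the listed genes and shugoshin shares with *Sgol2b* were added after seeing the data. Pseudotime used scanpy 1.11.5 (15 neighbours) from an early spermatocyte-like cell. Thinning drew 5000 UMIs per cell. Calculations used Python 3.11.15, numpy 2.4.6, scipy 1.17.1, pandas 2.3.3 and scikit-learn 1.9.0, with matplotlib 3.10.9 for the plots.

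The members and gene lists were chosen with earlier results of these data known. All 10 members are named, with the 3 called genes of largest change per list, genes that account for counts of 5 or fewer, and the 3 genes most like each meiotic member.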

Additional observations from a re-analysis of the deposited data

Results flagged for a closer look

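Among the members with a ratio calculated for both mice, which leaves out *Sgol1*, the mice moved in opposite directions between the same classes in 3 cases. Each ratio came from a single animal, and the difference between the mice was not tested. The log2 ratio of *Smc3* in pachytene or later over early spermatocyte-like cells was -0.64 in mouse 1 and 0.87 in mouse 2, and that of *Rad21* was -0.28 and 0.38. In round spermatid-like cells over the *Ssxb*-led cluster, *Smc3* had 0.019 in mouse 1 and -0.16 in mouse 2. None of these passed the test over both mice.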

How the results depend on the processing

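The number of members called stayed within 1.5 times of the reported number in all 5 comparisons under each alternative run. Of the member values, 442 were counted as unchanged, 12 passed the threshold and 15 lost it. The 442 include 39 of mouse 1 alone and 36 of mouse 2 alone, and the others kept their direction and side of the threshold. Values of a mouse alone had no p-value and counted as unchanged within the SD of the mice, even where an uncalled value changed direction. That SD came from the same 2 values, so this count does not measure agreement between animals. The other 10 values of a mouse alone include those of *Sgol1*, calculated for mouse 1 only and so without an SD. Its 0 UMIs in elongating-like cells of mouse 2 left every ratio of mouse 2 undefined as calculated, also between classes with UMIs. In mouse 2 *Sgol1* was 5.06 CPM in early and 1.22 CPM in pachytene-like cells. Among the values from both mice, 20 turned in direction. These were small except for *Rad21* in elongating over round with the larger elongating cluster alone (-1.05), where *Sgol1* had 0.53 and *Sgol2a* 0.15. *Smc1b* in spermatocyte over spermatid was -0.052 with the smaller cluster alone. In pachytene over early, *Rec8*, *Smc3* and *Rad21* were -0.030, -0.23 and -0.14 with DESeq2, -0.043, -0.15 and -0.14 with RLE scaling, and -0.079, -0.19 and -0.18 with total-count scaling, under which *Wapl* was -0.0031. With K = 10, *Smc3* and *Rad21* were -0.019 and -0.024. In round over *Ssxb*-led cells, *Stag3* and *Smc3* were 0.018 and 0.047 with DESeq2 and 0.022 and 0.051 with RLE scaling. The cause was not tested in any of these. The replicate block changed the calls of *Smc1b* (0.21 in spermatocyte over spermatid, 0.33 in round over *Ssxb*-led cells), *Stag3* and *Wapl* given in the report, and no other member's call. Mouse 1 alone gave *Sgol1* 0.96 in spermatocyte over spermatid. Depth limited *Sgol1*, with 70 UMIs, and the kleisin shares of early spermatocyte-like cells, with 37 UMIs. Thinning kept the class with the highest share of cells in 8 of 9 members, and *Rad21* changed from round to elongating or condensing spermatid-like cells.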
